A study of Mus musculus with 12 samples.

Results

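The effector cytokines of innate lymphoid cells (ILCs) are the secreted or surface signals by which these cells act on their neighbours. The genes described here are Il22, Il17a, Il17f, Csf2, Ifng, Il5, Il13, Areg, Lta and Ltb, 10 of the 23284 genes in the expression table. They were chosen by name, as genes of the cytokines that ILCs are known to make. All 10 were found in the table by their symbols, and each is given in all 12 libraries, by gut layer and milk diet.

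The study asked how palmitic acid (PA), a long-chain saturated fatty acid, in maternal milk bears on ILCs of the offspring. HR-1 hairless mice were used, at an age given as 18 weeks, and the labels name no other allele or transgene. Pups of the PA milk groups were nursed by dams whose chow held added palmitic acid, and pups of the ND groups by dams on normal chow. Cells labelled as group 3 ILCs (ILC3s) were sorted from the intraepithelial layer (IEL) and the lamina propria (LP) of the small intestine, which gave 3 libraries each of ND IEL, PA IEL, ND LP and PA LP. The methods describe the gate as lineage-negative cells positive for CD4, Thy1.2, CD25 and Nrp1, while a figure legend names CD45 in the place of CD4. The labels number the mice of each diet from 1 to 3 in both layers, but do not say whether libraries with the same number came from 1 mouse or whether animals were pooled. The p-values therefore measure the spread between these libraries, which may be partly technical. No stimulation of the cells sorted for RNA is stated in the sources used here.

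The libraries were made from very small amounts of RNA with amplification of full-length cDNA. Values are FPKM, fragments per kilobase of transcript scaled to the depth of the library, so levels can be compared between genes. Depth worked out from the steps between low values was 8.77 to 14.6 M reads (M, mega) per library. Because these reads were amplified without molecular identifiers, a floor of 3 reads covers counting error only. For Il22 this floor was worth 0.220 to 0.349 FPKM, depending on the library. A gene was called detected in a library at an FPKM of at least 1.

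Libraries of the same group differed widely before any cytokine was considered. The number of genes detected was 11121, 7863 and 11172 in replicates 1, 2 and 3 of ND IEL, 10145, 4390 and 9754 in PA IEL, 9595, 11158 and 11282 in ND LP, and 8406, 5637 and 11378 in PA LP. Replicate 2 of PA IEL, of PA LP and of ND IEL thus held the fewest genes. Reads were not fewer in all 3 of these libraries, with 14.6, 9.87 and 14.2 M.

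Cytokine secretion is the rapid output of ILCs, set off by signals of neighbouring cells and not by rearranged antigen receptors, which ILCs lack. In the gut, ILC3s are stimulated by IL-23 and IL-1β, and are known for IL-22, IL-17A, IL-17F and GM-CSF, which act on epithelium and myeloid cells. ILC1s and NK cells are known for IFN-γ and T-bet (Tbx21), and ILC2s for IL-5, IL-13, amphiregulin and GATA3, whereas lymphotoxins organise lymphoid tissue. The same cytokines are also made by helper and γδ T cells, so the cytokine genes do not by themselves tell an ILC from a T cell.

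The label ILC3 was checked against 12 genes that define these cells or the gate. The number of these 12 genes detected was 11, 6 and 12 in ND IEL, 12, 1 and 11 in PA IEL, 9, 11 and 9 in ND LP and 6, 3 and 11 in PA LP. Il23r, the receptor for IL-23, was 1.47, 0 and 6.97 in ND IEL, 34.7, 0 and 13.7 in PA IEL, 2.85, 22.8 and 0.380 in ND LP and 0, 0.0400 and 2.69 in PA LP. The level of Id2, which all ILCs need, was the highest of the list in every library and lay between 95.2 and 749.6 FPKM. It was 110, 217 and 273 in ND IEL and 750, 326 and 586 in PA IEL. In LP it was 539, 455 and 546 under ND and 190, 95.2 and 240 under PA milk. Its diets did not overlap in either layer, as for 8.19% of all genes tested in IEL and 9.57% in LP. PA milk differed from ND by 1.48 (SE 0.51, limma adjusted p = 0.947) in IEL and by -1.64 (SE 0.51, limma adjusted p = 0.979) in LP, as log2 values. Of the genes of the gate, Thy1 was detected in 7 libraries at up to 14.2 FPKM, Il2ra (CD25) in 8 at up to 82.4 and Nrp1 in 10 at up to 58.2. Cd4, of the gate as the methods give it, was detected in 11 at up to 63.3. Ptprc (CD45) was detected in 11 libraries and was at 0.0433 FPKM in PA IEL replicate 2. Il7r, the IL-7 receptor, was detected in 9 libraries, Kit in 10, Il1r1 in 9, Ccr6 in 8 and Ncr1 (NKp46) in 4. The label thus fits the markers in part. No more than 6 of the 12 were detected in PA LP replicates 1 and 2 and in replicate 2 of PA IEL and of ND IEL, and the cells are called by their group labels below. Compared with ND, PA milk had higher values for 8 of the 12 genes in IEL and for 2 in LP. The median differences between the diets were 0.60 and -1.50 as log2 values. Of all genes tested, 38% were higher under PA milk in IEL and 37.4% in LP. Limma called 0 of 12 in any comparison (between the diets, 1 in IEL and 2 in LP at an unadjusted p under 0.05).

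Genes of other cell types were present as well. Of 14 T cell genes, the number detected was 12, 2 and 14 in ND IEL, 6, 1 and 6 in PA IEL, 10, 11 and 10 in ND LP and 5, 1 and 13 in PA LP, and their summed FPKM was 289.9, 14.7 and 589.8, then 207, 26.3 and 106, then 195, 489 and 262, then 115, 56.0 and 387 in the same order. Lat was the most abundant of them on average, followed by Cd3g, Cd8b1 and Cd4. Cd4 belongs to the gate in the methods and so does not by itself point to T cells, and it made up 26.1 and 55.8 of the sums in replicate 2 of PA IEL and of PA LP. Cd3e, a chain of the T cell receptor complex, was 23.5, 0 and 87.5 in ND IEL, 0, 0 and 0 in PA IEL, 25.8, 39.3 and 48.9 in ND LP and 13.6, 0 and 26.1 in PA LP. It was thus listed at 0 in all 3 PA IEL libraries, where Cd3d was listed at 0 as well. Cd3g was 102, 0.0957 and 118 in ND IEL and 0, 0 and 11.1 in PA IEL. Of the 13 T cell genes tested, 11 were lower under PA milk in each layer, with medians of -1.93 in IEL and -1.84 in LP, and limma called 0 (3 and 1 at an unadjusted p under 0.05).

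Of 18 epithelial genes in the table, 11 to 18 were detected in each library. Their summed FPKM was 27145, 93874 and 32356 in ND IEL, 9530.4, 5164 and 58355 in PA IEL, 11704, 5887 and 10486 in ND LP and 1759.5, 2494 and 1334 in PA LP, led on average by Fabp2, Apoa1, Fabp1 and Apoa4, genes of fat absorption in enterocytes. The highest sum was that of ND IEL replicate 2, a library in which 1 of the 10 cytokine genes was detected. Between the layers, limma called Apoa1 under ND and Apoa1, Apoa4 and Alpi under PA milk, all higher in IEL. The part of other cells in the cytokine levels was not tested. In these bulk samples, fewer cells of a type and less RNA per cell cannot be told apart.

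**Figure D1:**
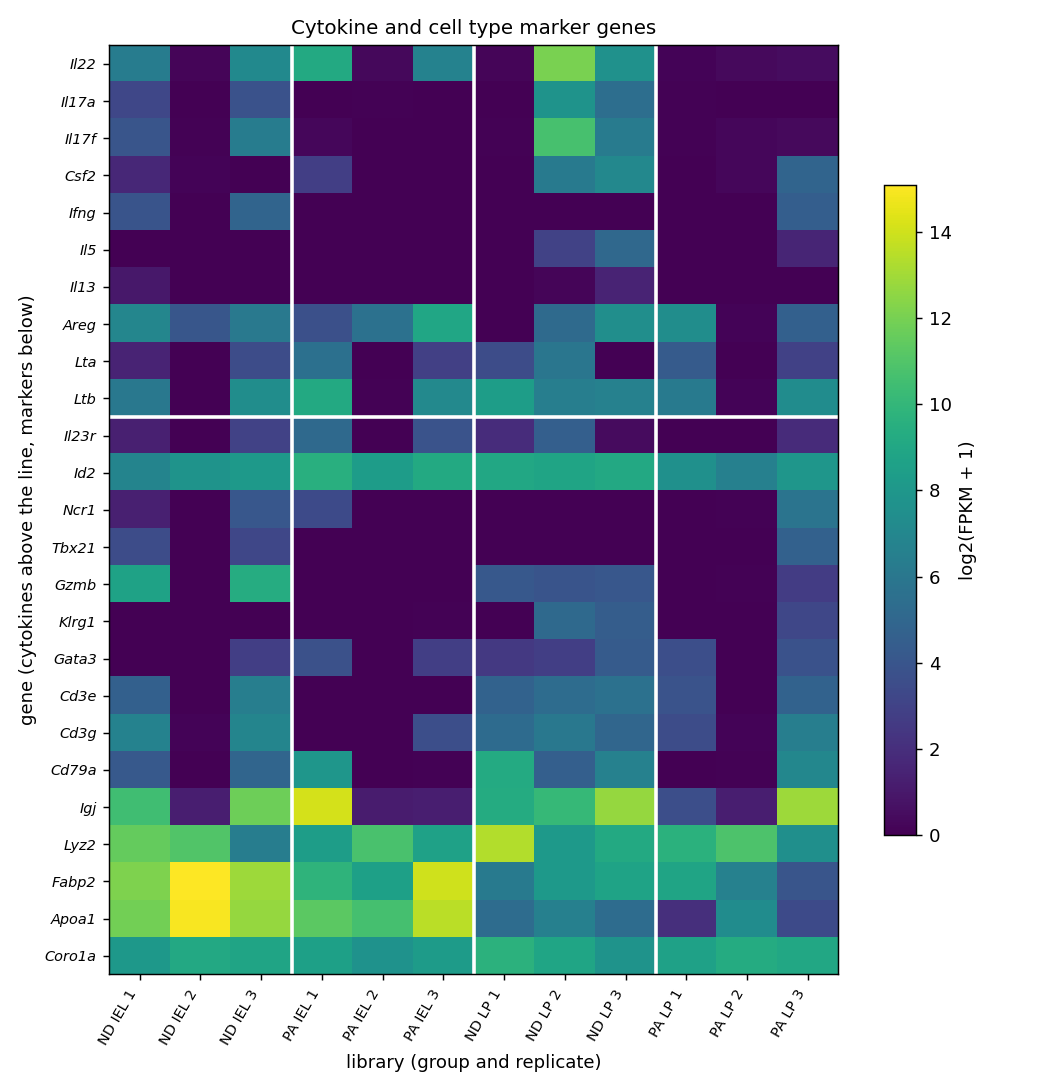
Level of the 10 cytokine genes (above the line) and of 15 marker genes (below it) in each of the 12 libraries, as log2(FPKM + 1) on a colour scale. Ifng is light in the 3 libraries in which Tbx21 is.

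The number of the 10 cytokine genes detected was 8, 1 and 7 in ND IEL, 5, 1 and 4 in PA IEL, 2, 8 and 8 in ND LP and 3, 0 and 6 in PA LP. Their summed level was 311, 15.5 and 509 FPKM in ND IEL, 1199, 48.9 and 733 in PA IEL, 355, 6454 and 759 in ND LP and 263, 0.915 and 244 in PA LP. One library, ND LP replicate 2, held a sum several times that of any other, and 67.2% of it was Il22. The cytokine with the highest level differed between libraries. It was Il22 in ND LP replicates 2 and 3, Ltb in ND IEL replicate 3, PA IEL replicate 1, PA LP replicate 3 and ND LP replicate 1, and Areg in ND IEL replicates 1 and 2, PA IEL replicates 2 and 3 and PA LP replicate 1. In PA LP replicate 2 no cytokine gene reached 1 FPKM.

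Ordered by the median over the 12 libraries, the levels were 93.3 FPKM for Ltb, 42.5 for Areg, 41.0 for Il22 and 6.40 for Lta, and below 1 for the other 6 genes. By the mean the order was Il22 (453), Il17f (151), Ltb (142), Areg (96.7), Il17a (23.5), Csf2 (19.8), Lta (13.4), Ifng (5.39), Il5 (3.55) and Il13 (0.247). The orders differ because ND LP replicate 2 carried 79.9% of the summed Il22 signal, 90.6% of that of Il17f and 77.1% of that of Il17a. The ranges of neighbouring genes in this order overlapped over the 12 libraries throughout.

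**Figure D2:**
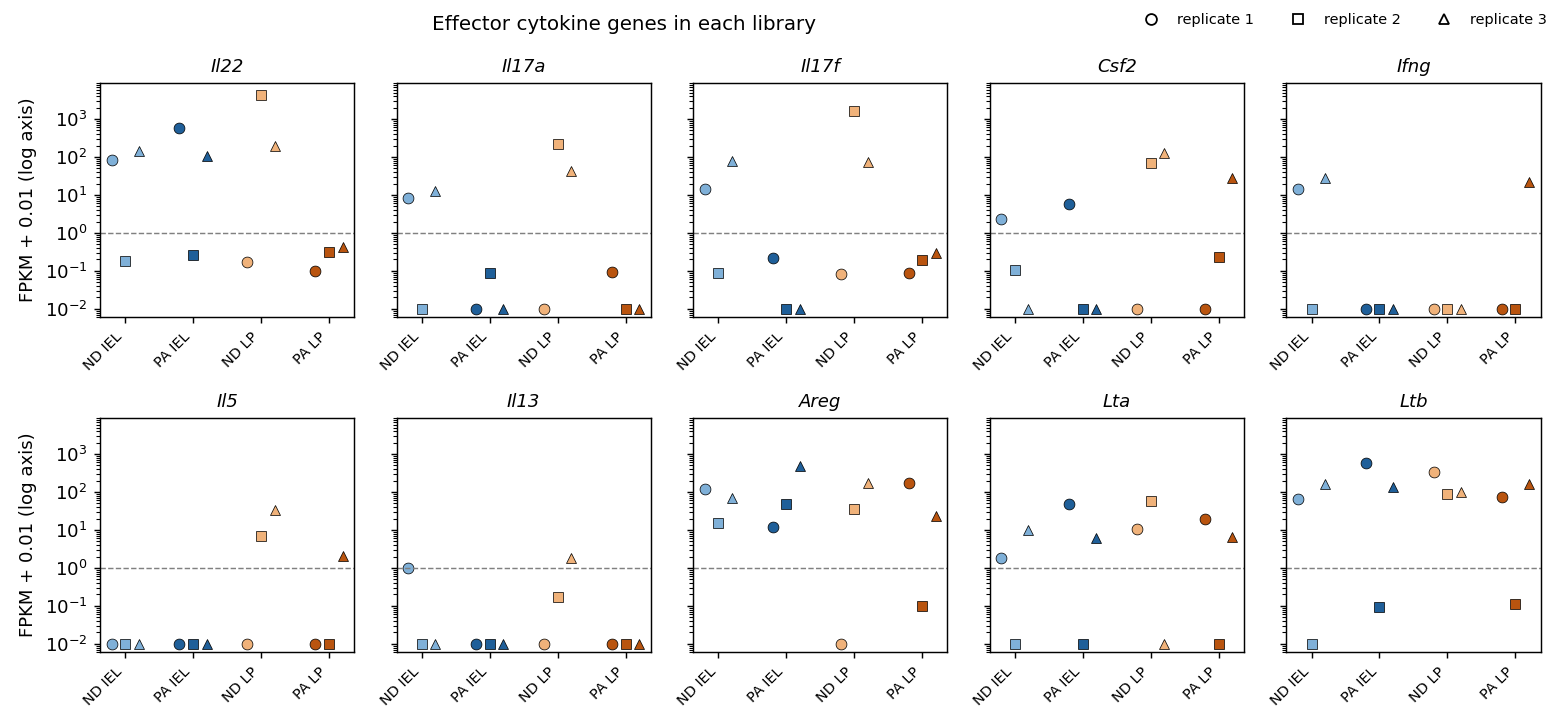
FPKM of each cytokine gene in each library on a log axis, with 0.01 added so that values of 0 can be drawn. Points are single libraries by group, their shape gives the replicate number, and the dashed line marks an FPKM of 1. All 6 PA points of Il17a and of Il17f lie under the line, and for each gene the points of at least 1 group lie on both sides of it.

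Among the type 3 cytokines, Il22 encodes IL-22, which acts on epithelial cells and induces antimicrobial proteins and mucus. Its FPKM was 81.5, 0.177 and 144 in ND IEL, 565, 0.248 and 104 in PA IEL, 0.164, 4339 and 198 in ND LP and 0.0886, 0.311 and 0.416 in PA LP. Il22 was thus either high or close to nothing, detected in 2 of 3 libraries of ND IEL, PA IEL and ND LP and in 0 of 3 of PA LP. The 3 PA LP values rest on 1, 3 and 4 reads. The values of each diet overlapped in both layers, since ND LP replicate 1 stood at 0.164, among the PA values. On the log2(FPKM + 1) scale, which is used for all differences and understates changes of low genes, PA milk differed from ND by -6.31 (SE 2.61, limma adjusted p = 0.979) in LP and by 0.80 (SE 2.61, limma adjusted p = 1) in IEL. The difference between those effects, -7.11 (SE 3.69, limma adjusted p = 1), did not pass the threshold of 0.05 either. Exact two-sided permutation tests over the libraries gave p = 0.3 in LP and p = 0.7 in IEL, where 3 libraries against 3 cannot give less than 0.1. With the 3 libraries of fewest genes left out, a choice made after the values were seen, the LP difference was -6.33 and the IEL difference 1.15. With 1 library left out, the LP difference ranged from -9.52 without ND LP replicate 1 to -3.59 without ND LP replicate 2. The IEL difference then ranged from -1.38 without ND IEL replicate 2 to 3.33 without PA IEL replicate 2.

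The presence of Il22 did not go with that of Cd3e in every library. PA IEL replicate 1 had 565 FPKM of Il22 with Cd3d, Cd3e and Cd3g listed at 0, while Il23r was at 34.7, its highest value of the 12 libraries. Other T cell genes were present there, with 6 of 14 detected, among them Cd8b1 at 129 and Lat at 9.87. In PA IEL replicate 3, with 104 FPKM of Il22, Cd3d and Cd3e were listed at 0 beside Cd8b1 at 37.0, Lat at 26.6 and Cd3g at 11.1. The other 4 libraries with Il22 had Cd3e at 23.5 to 87.5 FPKM. ND LP replicate 3 had 198 FPKM of Il22 with Il23r at 0.380.

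The mouse reference genome holds a near-identical copy of Il22 named Iltifb, and reads of either can be assigned to the other. Il22 lies on the plus strand at chr10:118204942-118210047 and Iltifb on the minus strand at chr10:118289629-118295038, 79.6 kb apart (GRCm38, the build that mm10 names). Their coding sequences, each of 537 bases without the stop codon, were identical at 528 bases, or 98.3%, with 215 bases as the longest shared run. Iltifb was detected in the same 6 libraries as Il22, at 0.264 to 0.382 of its level, with a median of 0.347. Levels of the copies are therefore uncertain singly, and their sum was 112, 0.177 and 199 FPKM in ND IEL, 767, 0.410 and 133 in PA IEL, 0.164, 5796 and 250.3 in ND LP and 0.175, 0.311 and 0.517 in PA LP. The stretch of 120 coding bases with the most differences, bases 98 to 217 from the start codon, shows how little tells the copies apart, with the 5 differing bases in capitals, as read from the GENCODE vM21 transcripts.
Il22: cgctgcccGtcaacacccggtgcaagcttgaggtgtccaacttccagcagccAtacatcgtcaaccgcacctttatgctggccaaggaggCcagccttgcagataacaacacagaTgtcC
Iltifb: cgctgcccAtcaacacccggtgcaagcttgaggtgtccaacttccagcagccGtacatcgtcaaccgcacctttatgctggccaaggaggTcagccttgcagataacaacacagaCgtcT

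Il17a and Il17f encode IL-17A and IL-17F, which recruit neutrophils and induce antimicrobial peptides through a shared receptor. The FPKM of Il17a was 8.15, 0 and 12.8 in ND IEL, 0, 0.0756 and 0 in PA IEL, 0, 217 and 43.5 in ND LP and 0.0808, 0 and 0 in PA LP. The FPKM of Il17f was 14.5, 0.0804 and 79.4 in ND IEL, 0.211, 0 and 0 in PA IEL, 0.0743, 1637 and 75.7 in ND LP and 0.0802, 0.188 and 0.283 in PA LP. Both genes were detected in the same 4 libraries, ND IEL replicates 1 and 3 and ND LP replicates 2 and 3, which are 4 of 6 ND libraries and 0 of 6 PA libraries. In PA libraries Il17a rested on 0, 1 and 0 reads in IEL and 1, 0 and 0 in LP, and Il17f on 2, 0 and 0 and 1, 2 and 3, all at or under the floor of 3 reads. The lowest of the 4 detected Il17a levels, 8.15 FPKM in ND IEL replicate 1, rested on 122 reads. Because ND IEL replicate 2 and ND LP replicate 1 were also at or under 1 read for both genes, ND and PA values overlapped in each layer.

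The fitted differences of Il17a were -4.38 (SE 1.56, limma adjusted p = 0.979) in LP and -2.29 (SE 1.56, limma adjusted p = 0.947) in IEL. Those of Il17f were -5.44 (SE 2.05, limma adjusted p = 0.979) in LP and -3.37 (SE 2.05, limma adjusted p = 0.947) in IEL. None passed the threshold, and the exact permutation p was 0.4 and 0.4 for Il17a in LP and IEL, and 0.4 and 0.2 for Il17f. Where a group lies at the floor, such a difference depends on the added 1 and is no bound on the fold. For both genes, each alternative fit gave lower values under PA milk than under ND, in IEL as in LP. Without the 3 libraries of fewest genes, the IEL difference was -3.49 for Il17a and -5.00 for Il17f, and the LP difference -4.36 and -5.45. Leaving out 1 library, Il17a ranged -6.58 to -2.70 in LP and -3.46 to -1.56 in IEL, and Il17f -8.23 to -2.94 in LP and -5.05 to -1.94 in IEL. The values nearest 0 were those without ND LP replicate 2 and without ND IEL replicate 3.

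The level of Il22 was not matched by that of Il17a across diets. In the 2 PA IEL libraries with Il22 at 565 and 104 FPKM, Il17a was listed at 0 and Il17f was at 0.211 and 0. In the 2 ND IEL libraries with Il22 at 81.5 and 144, Il17a was at 8.15 and 12.8, and Il17f at 14.5 and 79.4. The 4 libraries with Il17a were also 4 of the 7 with Cd3e at 1 FPKM or more, the other 3 being ND LP replicate 1 and PA LP replicates 1 and 3. In all 3 PA IEL libraries both Il17a and Cd3e were below 1 FPKM. The part of T cells in the Il17a and Il17f levels was not tested.

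Il17a and Il17f lie 42.6 kb apart on chromosome 1, Il17a on the plus strand at chr1:20730905-20734496 and Il17f on the minus strand at chr1:20777146-20790617. Since both genes were detected in the same 4 libraries, the 250 bases before the start site of each are shown from RefSeq (GRCm38.p6), at chr1:20730655-20730904 on the plus strand for Il17a and at chr1:20784271-20784520 on the minus strand for Il17f. The start site of Il17f in RefSeq lies inside the span given above, which is that of GENCODE vM21. Capitals mark matches to AGGTCA (a half-site of nuclear receptors) and TGANTCA (the AP-1 site), both searched on both strands, and to TATAAA (the TATA box), searched on the strand shown. No matches overlapped.
Il17a: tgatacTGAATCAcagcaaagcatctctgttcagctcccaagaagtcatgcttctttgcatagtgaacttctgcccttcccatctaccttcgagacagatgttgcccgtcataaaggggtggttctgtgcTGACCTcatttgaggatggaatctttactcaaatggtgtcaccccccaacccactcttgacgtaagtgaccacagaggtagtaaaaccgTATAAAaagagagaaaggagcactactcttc
Il17f: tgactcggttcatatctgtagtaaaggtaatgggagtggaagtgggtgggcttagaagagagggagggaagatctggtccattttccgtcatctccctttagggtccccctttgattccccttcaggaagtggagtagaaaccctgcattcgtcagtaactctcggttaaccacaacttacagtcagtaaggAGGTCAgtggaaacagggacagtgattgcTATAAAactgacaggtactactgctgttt

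AGGTCA began at base -120 of Il17a, as its reverse complement, and at base -58 of Il17f, counted back from the start site, and TATAAA began at -31 and -29. Of 32851 promoter windows of the same length, 14.0% held AGGTCA, 6.75% TGANTCA and 7.59% TATAAA. All 10 cytokine genes matched an entry, of which 2 held AGGTCA, 1 TGANTCA (Il17a) and 7 TATAAA (Areg, Ifng, Il13, Il17a, Il17f, Il22 and Lta). The TATAAA match began at -170 in Il22 and at -167 in Lta, and between -31 and -29 in the other genes that held it. TTCNNNGAA, the STAT motif, was held by 3 (Ifng, Lta and Ltb) and by 7.02% of all windows. A match describes these letters and is not shown to be a site.

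Csf2 encodes GM-CSF, a growth factor of myeloid cells. Its FPKM was 2.26, 0.0945 and 0 in ND IEL, 5.95, 0 and 0 in PA IEL, 0, 71.2 and 129 in ND LP and 0, 0.221 and 28.7 in PA LP. It was detected in 5 libraries, with the highest levels in ND LP replicates 2 and 3 and PA LP replicate 3, and the groups overlapped. PA milk differed from ND by -2.67 (SE 1.73, limma adjusted p = 0.979) in LP and by 0.32 (SE 1.73, limma adjusted p = 1) in IEL. Between the layers, IEL differed from LP by -3.79 (SE 1.73, limma adjusted p = 0.719) under ND. With limma sample quality weights this layer difference was -4.67 (limma adjusted p = 0.0256), and with 1 library left out it ranged -5.99 to -2.48. The LP difference by diet ranged -4.87 to -1.36, nearest 0 without ND LP replicate 3. The IEL difference by diet ranged -0.61 to 0.87, and was lowest without PA IEL replicate 1, the only PA IEL library in which the gene was detected.

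Ifng encodes IFN-γ, the type 1 cytokine that activates macrophages and antigen presentation. Its FPKM was 14.2, 0 and 28.2 in ND IEL, 0, 0 and 0 in PA IEL, 0, 0 and 0 in ND LP and 0, 0 and 22.2 in PA LP. It was detected in ND IEL replicates 1 and 3 and in PA LP replicate 3, and was listed at 0 in the other 9 libraries. PA milk thus stood on the opposite side of ND in each layer, with a fitted difference of -2.93 (SE 1.27, limma adjusted p = 0.947) in IEL and 1.51 (SE 1.27, limma adjusted p = 0.979) in LP. The difference between these effects was 4.45 (SE 1.79, limma adjusted p = 1), with the lowest unadjusted p of the 9 cytokine genes tested for that difference, at 0.0246. Against the floor of 3 reads in the group at 0, the mean of ND IEL was at least 46.0-fold higher than PA IEL, and the mean of PA LP at least 25.6-fold higher than ND LP. Without the 3 libraries of fewest genes the fitted IEL difference was -4.40 and the LP difference 2.27. These ranged -4.40 to -1.96 in IEL and 0 to 2.27 in LP with 1 library left out. The IEL bound is 23.2-fold without ND IEL replicate 3, and the LP bound rests on PA LP replicate 3 alone. Under ND, IEL differed from LP by 2.93 (SE 1.27, limma adjusted p = 0.662), and with sample quality weights by 4.15 (limma adjusted p = 0.00635). This layer difference ranged 1.96 to 4.40 with 1 library left out.

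Tbx21, which encodes T-bet, the factor that drives Ifng, was detected in exactly those 3 libraries, at 10.3 and 8.42 FPKM in ND IEL and 24.8 in PA LP, and was listed at 0 in the other 9. Of 10 genes of ILC1s and NK cells, 9, 2 and 8 were detected in ND IEL, 4, 1 and 3 in PA IEL, 5, 3 and 3 in ND LP and 0, 0 and 7 in PA LP. Their summed FPKM was 743, 11.8 and 1114 in ND IEL, 32.4, 84.0 and 38.8 in PA IEL, 50.3, 21.2 and 41.5 in ND LP and 0.143, 0.284 and 131 in PA LP. Gzmb, a granzyme, was the most abundant on average, at 407 and 649 in the ND IEL libraries with Ifng and 5.45 in PA LP replicate 3. It was at 17.01, 14.2 and 15.9 in ND LP, without Ifng, and was followed by Gzma, Klrk1 and Cd160. Eomes, a defining factor of NK cells, was listed at 0 in all 12 libraries. The T cell genes Cd3e and Cd3g were above 20 FPKM in all 3 libraries with Ifng, and also in all 3 ND LP libraries, in which Ifng was listed at 0. The part of NK, ILC1 or T cells in the Ifng level was not tested.

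Among the type 2 cytokines, Il5 encodes IL-5, the growth factor of eosinophils. Its FPKM was 0, 0 and 0 in ND IEL, 0, 0 and 0 in PA IEL, 0, 6.90 and 33.8 in ND LP and 0, 0 and 1.999 in PA LP. It was detected in 3 libraries, all of LP, and listed at 0 in the other 9. Under ND, IEL differed from LP by -2.70 (SE 0.99, limma adjusted p = 0.513), and the ND LP mean was at least 76.7-fold higher than the floor in ND IEL, or at least 19.5-fold without ND LP replicate 3. With sample quality weights the layer difference was -3.27 (limma adjusted p = 0.0119), and with 1 library left out it ranged -4.05 to -1.49. PA milk differed from ND by -2.17 (SE 0.99, limma adjusted p = 0.979) in LP, and in IEL both diets were at 0 throughout. The LP difference ranged -3.52 to -0.96 with 1 library left out, nearest 0 without ND LP replicate 3. The LP values overlapped, since ND LP replicate 1 was at 0.

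Il13 encodes IL-13, which drives mucus and type 2 inflammation. Its FPKM was 0.967, 0 and 0 in ND IEL, 0, 0 and 0 in PA IEL, 0, 0.158 and 1.83 in ND LP and 0, 0 and 0 in PA LP. It reached 1 FPKM in ND LP replicate 3 alone and so did not enter the fit, the only one of the 10 genes left out. The value in ND IEL replicate 1 rests on 15 reads and that in ND LP replicate 3 on 19. In PA libraries it was listed at 0 in all 6.

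Of 8 genes that define ILC2s, 4, 0 and 6 were detected in ND IEL, 5, 1 and 4 in PA IEL, 3, 5 and 8 in ND LP and 3, 1 and 4 in PA LP, with summed FPKM of 32.0, 0.113 and 70.1, then 80.3, 54.3 and 62.3, then 15.5, 106 and 180.0, then 30.4, 7.82 and 88.3 in that order. Icos was the most abundant on average, followed by Hpgds. Klrg1, a receptor of mature ILC2s and of some T cells, was detected in the same 3 libraries as Il5, at 34.5 and 20.8 FPKM in ND LP and 8.30 in PA LP. It was singled out after its values were seen. The FPKM of Gata3 was 0, 0 and 5.94 in ND IEL, 12.2, 0 and 6.04 in PA IEL, 4.70, 6.01 and 19.3 in ND LP and 11.3, 0 and 12.7 in PA LP, so it was present in those 3 libraries and in 5 without Il5. The part of ILC2s or T cells in the Il5 level was not tested.

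Areg encodes amphiregulin, a ligand of the EGF receptor that supports epithelial repair and is made by ILC2s, by T cells and by epithelium. Its FPKM was 122, 15.2 and 68.0 in ND IEL, 11.9, 48.5 and 486 in PA IEL, 0, 36.5 and 178 in ND LP and 169.7, 0.0920 and 23.6 in PA LP. It was the most widely detected of the 10 genes, in 10 libraries and in all 6 of IEL, and the groups overlapped in every comparison. PA milk differed from ND by 0.39 (SE 1.95, limma adjusted p = 1) in IEL and by -0.18 (SE 1.95, limma adjusted p = 1) in LP. Both differences turned sign in several alternatives, among them the one without the 3 libraries with the fewest genes, with -0.22 in IEL and 1.78 in LP. They ranged -1.03 to 1.59 in IEL and -2.30 to 1.78 in LP when 1 library was left out. Unlike the other cytokine genes detected, Areg was present in PA IEL replicate 2 and ND IEL replicate 2. Epithelial genes were summed at 5164 and 93874 FPKM there, and their part in the Areg level was not tested.

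The lymphotoxin genes Lta and Ltb encode the subunits of the membrane lymphotoxin that lymphoid tissue inducer cells use to organise lymphoid tissue. The FPKM of Ltb was 64.7, 0 and 166 in ND IEL, 569, 0.0820 and 137 in PA IEL, 344, 86.9 and 99.6 in ND LP and 74.0, 0.103 and 160.2 in PA LP. It was detected in 9 libraries, between 64.7 and 569 FPKM, and was at 0.103 or less in the 3 libraries with the fewest genes. Ltb thus separated these 3 libraries from the other 9 and not the diets or layers. PA milk differed from ND by -2.61 (SE 2.26, limma adjusted p = 0.979) in LP and by 0.99 (SE 2.26, limma adjusted p = 1) in IEL. Without those 3 libraries the LP difference was -0.40, and the IEL difference was 1.42. With 1 library left out, the LP difference ranged -3.996 to -0.40, and the IEL difference from -1.25 without ND IEL replicate 2 to 3.66 without PA IEL replicate 2.

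The FPKM of Lta was 1.81, 0 and 10.2 in ND IEL, 46.9, 0 and 6.18 in PA IEL, 10.4, 59.7 and 0 in ND LP and 19.1, 0 and 6.61 in PA LP. It was detected in 8 of the 9 libraries with Ltb, the exception being ND LP replicate 3, where Lta was listed at 0 beside 99.6 FPKM of Ltb. PA milk differed from ND by 1.15 (SE 1.75, limma adjusted p = 0.983) in IEL and by -0.73 (SE 1.75, limma adjusted p = 0.987) in LP. The IEL difference was 1.72 without the 3 libraries of fewest genes. Lta ranged -0.24 to 2.55 in IEL and -2.30 to 0.66 in LP with 1 library left out.

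B cells also make lymphotoxin. Of 8 B and plasma cell genes in the table, 5, 3 and 5 were detected in ND IEL, 5, 3 and 3 in PA IEL, 6, 6 and 7 in ND LP and 2, 2 and 4 in PA LP. Their summed FPKM was 1507, 55.6 and 3568 in ND IEL, 18395, 152 and 107 in PA IEL, 1592, 1226 and 6841 in ND LP and 20.1, 148 and 7806 in PA LP. Igj was the most abundant on average, followed by Cd79a, Sdc1 and Cd79b, and Pax5 was listed at 0 in all 12. Cd79a, a chain of the B cell receptor complex, was at 246 and 608 FPKM in PA IEL replicate 1 and ND LP replicate 1, which had the 2 highest Ltb levels. In PA IEL replicate 3 and PA LP replicate 1, Ltb was at 137 and 74.0 with Cd79a at 0.0705 and 0. The part of B cells in the lymphotoxin levels was not tested.

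Of myeloid and mast cell genes, 14 were in the table and 8 to 14 were detected in each library. Their summed FPKM was 4179.5, 4216 and 2347 in ND IEL, 2263, 7135 and 1856 in PA IEL, 12334, 1761 and 1240.3 in ND LP and 2484, 5251 and 1747 in PA LP, led on average by Lyz2, Tyrobp, Fcer1g and S100a8. By contrast, 23 to 30 of 30 genes common to leukocytes were detected in each library, led by Coro1a, Laptm5, Rgs1 and Arhgdib. Coro1a stayed between 209 and 829 FPKM over the 12 libraries.

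Across the 9 cytokine genes tested, limma called 0 at an adjusted p under 0.05 in each of the 5 comparisons, and limma-voom on recovered reads also called 0. With sample quality weights it called 3 (Csf2, Ifng and Il5) between the layers under ND, a fit in which 793 of all genes were called. For each of these 3 genes in this comparison, the exact permutation p was 0.4. Without the 3 libraries of fewest genes, their limma adjusted p was 0.703, 0.222 and 0.596. Over all 12502 genes tested, limma called 0 (0%) for PA against ND in IEL, 0 (0%) for PA against ND in LP and 0 (0%) for the difference between these effects. It called 4 (0.032%) for IEL against LP under ND, namely Apoa1, Ccl21a, Clu and Madcam1, and 18 (0.144%) for IEL against LP under PA milk.

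At an unadjusted p under 0.05, 1 cytokine gene (Ifng) was found for PA against ND in IEL, against 3.58% of all genes tested. In LP there were 4 (Il22, Il17a, Il17f and Il5), against 4.7% of all. These 4 genes are not separate evidence, because the difference of each rests on ND LP replicates 2 and 3. For the difference between the diet effects there was 1 (Ifng), against 2.34%. For IEL against LP there were 3 under ND (Csf2, Ifng and Il5), against 6.63%, and 0 under PA milk, against 10.6%.

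The groups overlapped for all 9 cytokine genes in every comparison of 2 groups. Over all genes tested, the groups did not overlap for 8.19% of genes between the diets in IEL, 9.57% between the diets in LP, 19.3% between the layers under ND and 8.57% between the layers under PA milk.

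By direction, 8 of the 9 cytokine genes were lower under PA milk in LP, with a median difference of -2.61, where the median of all genes tested was -0.36. In IEL, 5 were higher, 3 lower and 1 (Il5) at 0 in both diets, with a median of 0.32 against -0.30 for all. Of all genes tested, 37.4% were higher under PA milk in LP and 38% in IEL. The 9 genes share their high libraries, so these counts describe them and were not tested. Genes of other cell types were lower under PA milk in LP as well, among those tested 7 of 7 B and plasma cell genes (median -3.71), 18 of 18 epithelial genes (-2.001), 11 of 13 T cell genes (-1.84) and 6 of 7 ILC2 genes (-1.39). Of ILC1 and NK cell genes 5 of 9 were lower there (0.00), and of myeloid and mast cell genes 5 of 12 (0.25). In IEL the lower genes were 4 of 7 for B and plasma cells (-0.20), 17 of 18 for epithelium (-1.92), 1 of 7 for ILC2s (0.31), 7 of 9 for ILC1s and NK cells (-1.48) and 4 of 12 for myeloid and mast cells (0.59). Limma called 0 genes of these lists between the diets, and at an unadjusted p under 0.05 there were 3 B and plasma cell, 6 epithelial and 1 T cell genes in LP, and 3 epithelial, 3 T cell, 3 ILC1 and NK cell and 3 myeloid and mast cell genes in IEL.

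Between the layers under ND, 7 of 9 were lower in IEL than in LP, with a median of -2.09 against -0.09 for all genes. The differences were -2.05 (SE 2.61, limma adjusted p = 1) for Il22, -2.09 for Il17a, -2.22 for Il17f, -1.49 for Lta and -2.71 for Ltb, while Ifng (2.93) and Areg (1.45) were higher in IEL. The Il22 difference turned to 0.13 without the 3 libraries of fewest genes. These layer differences under ND ranged, with 1 library left out, -5.27 to 0.67 for Il22, -4.29 to -0.41 for Il17a, -5.00 to 0.28 for Il17f, -3.06 to -0.10 for Lta, -4.16 to -0.47 for Ltb and -0.66 to 3.08 for Areg. Under PA milk, the largest difference between the layers was that of Il22, 5.05 (SE 2.61, limma adjusted p = 0.507), with higher values in IEL. It was followed by Areg (2.03), Ifng (-1.51), Ltb (0.89), Csf2 (-0.79), Il5 (-0.53) and Lta (0.39). Without 1 library they ranged 3.18 to 7.59 for Il22, 0.06 to 3.71 for Areg, -2.27 to 0 for Ifng, -1.32 to 3.56 for Ltb, -1.73 to 0.79 for Csf2, -0.79 to 0 for Il5 and -0.998 to 1.79 for Lta. Il17a and Il17f, at or under the floor in both layers, are not placed in this order. The differences between the diet effects in LP and IEL were -2.09 for Il17a, -2.07 for Il17f, -2.99 for Csf2, -2.17 for Il5, -0.57 for Areg, -1.88 for Lta and -3.60 for Ltb, beside those of Il22 and Ifng above, all with a limma adjusted p of 1. Over the 12 fits that each leave out 1 library, they ranged -10.32 to -4.39 for Il22, -4.29 to -0.41 for Il17a, -4.86 to 0.43 for Il17f, -5.19 to -1.68 for Csf2, 2.93 to 5.91 for Ifng, -3.52 to -0.96 for Il5, -2.69 to 1.39 for Areg, -3.45 to -0.49 for Lta and -6.27 to -1.36 for Ltb.

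The receptors of these cytokines form a list of 18 genes, of which 16 were tested and 0 passed the threshold in any comparison. Under PA milk in IEL, 7 of 16 were higher and 9 lower, with a median of -0.23, and in LP 7 of 16 were higher and 9 lower, with a median of -0.36. For this list and those that follow, the share of all genes tested that was higher under PA milk was 38% in IEL and 37.4% in LP. The medians of all genes tested were -0.30 and -0.36. The most abundant on average were Ifngr1 and Ifngr2, which form the receptor of IFN-γ, Tnfrsf1a, a receptor of lymphotoxin and TNF, and Il10rb, a chain shared by the IL-22 and IL-10 receptors. Ifngr1 was detected in all 12 libraries, between 51.7 and 217 FPKM. Ifngr2 lay between 18.3 and 232, Tnfrsf1a between 5.05 and 180.3 and Il10rb between 0.0443 and 111. Il13ra2, a decoy receptor of IL-13, was listed at 0 in all 12 libraries.

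Of 19 receptor genes for cytokines that induce ILC cytokines, 18 were tested and 0 passed the threshold. Under PA milk in IEL, 10 of 18 were higher and 8 lower, with a median of 0.23, and in LP 5 of 18 were higher and 13 lower, with a median of -0.60. Il2rg, the chain common to the receptors of IL-2, IL-7 and related cytokines, was the highest of the list in every library, between 48.7 and 412 FPKM. It was followed on average by Il7r, Il6st and Crlf2. Il7r was 28.5, 49.3 and 39.5 in ND IEL, 167, 0.0242 and 124 in PA IEL, 0, 26.7 and 10.6 in ND LP and 30.9, 0.0304 and 25.4 in PA LP. Il6st, the signal chain of the IL-6 family, was 2.30, 0 and 3.40 in ND IEL, 6.45, 0.0139 and 0 in PA IEL, 32.4, 36.9 and 17.9 in ND LP and 112, 0 and 88.5 in PA LP. Crlf2, a chain of the TSLP receptor, lay between 0 and 58.8.

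Of 29 genes that regulate cytokine transcription or mRNA stability, 28 were tested and 0 passed the threshold. Under PA milk in IEL, 8 of 28 were higher and 20 lower, with a median of -0.46, and in LP 8 of 28 were higher and 20 lower, with a median of -0.81. The most abundant were Zfp36, which destabilises cytokine mRNAs, and the AP-1 genes Fos, Junb and Jun, all detected in every library. Zfp36 was 1208, 1687 and 949.6 in ND IEL, 1404, 792 and 1317 in PA IEL, 3421, 4611 and 1946 in ND LP and 7545, 388 and 7639.9 in PA LP. Fos lay between 125 and 6145, Junb between 229.6 and 4043 and Jun between 224 and 1193 FPKM.

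Of 22 other lymphocyte cytokine genes, 18 were tested and 0 passed the threshold, while Il3, Il9 and Il24 were listed at 0 in all libraries. Under PA milk in IEL, 6 of 18 were higher and 12 lower, with a median of -0.36, and in LP 6 of 18 were higher and 11 lower, with a median of -0.24. Il6, whose product supports type 17 responses, was the most abundant on average and was 1.17, 0.177 and 0.148 in ND IEL, 0.233, 0.166 and 0 in PA IEL, 1.89, 315 and 50.2 in ND LP and 1299.6, 0 and 558 in PA LP. It was thus above 50 FPKM in 4 LP libraries of both diets and below 2 in the other 8, with a layer difference of -6.32 (SE 2.17, limma adjusted p = 0.392) under PA milk and -4.65 (SE 2.17, limma adjusted p = 0.744) under ND. Hbegf, a ligand of the EGF receptor like Areg, lay between 0.0421 and 281. Tnfsf9 (4-1BB ligand) lay between 0 and 318, and Tgfb1 between 5.82 and 57.0 FPKM.

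Most of the cytokine genes lie in clusters. Ifng, at chr10:118441046-118445892, follows Il22 and Iltifb on chromosome 10, 231 kb from Il22. Ltb (chr17:35194439-35196320) and Lta (chr17:35203165-35205351) flank Tnf on chromosome 17 and are 6.84 kb apart. Il13 (chr11:53631324-53634702) and Il5 (chr11:53720794-53725106) are 86.1 kb apart on chromosome 11, and Csf2 (chr11:54247271-54249667) lies 522 kb beyond Il5. Areg is alone at chr5:91139599-91148432. Neighbours were not always detected together, as Il22 and Ifng shared 2 libraries, ND IEL replicates 1 and 3, of 6 and 3. The FPKM of Tnf, between the lymphotoxin genes, was 5.98, 0 and 8.65 in ND IEL, 14.4, 0 and 17.4 in PA IEL, 16.4, 37.3 and 11.9 in ND LP and 0, 0 and 12.7 in PA LP. It was at 0 in PA LP replicate 1, where Lta and Ltb were at 19.1 and 74.0.

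**Figure D3:**
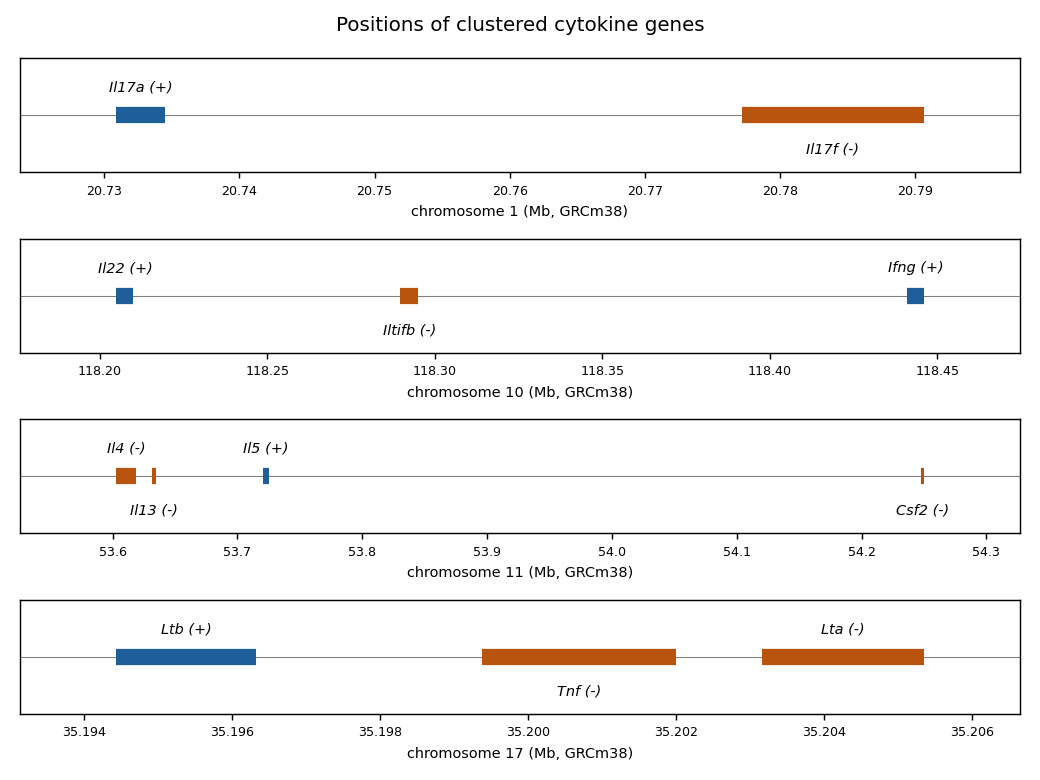
Positions of the clustered cytokine genes on GRCm38, drawn to scale within each panel in megabases, with plus-strand genes in blue and minus-strand genes in orange. The copy Iltifb lies between Il22 and Ifng, and Tnf between Ltb and Lta.

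The genes most like each cytokine gene were named by the Pearson correlation of log2(FPKM + 1) over the 12 libraries, which share groups, depth and cell makeup, so the values are descriptions with no test. For Il22 they were Iltifb (0.997), Rgn (0.972), Ptger2 (0.958). For Il17a they were Pctp (0.998), Il17f (0.989), Psd3 (0.977), and for Il17f Il17a (0.989), Pctp (0.984), Psd3 (0.978). Pctp, a phosphatidylcholine transfer protein gene, had FPKM of 2.12, 0 and 2.69 in ND IEL and 0, 11.01 and 5.90 in ND LP, and was listed at 0 in all 6 PA libraries. For Csf2 they were Cpt1c (0.947), A530054K11Rik (0.944), Fbln7 (0.944). For Ifng they included Ttf2 (0.999), Trpt1 (0.982). For Il5 they were Serpina1d (0.997), Serpina1e (0.996), Dgkb (0.995), genes detected in the same 3 libraries. For Areg they were Ppp1r15b (0.879), Ndufs6 (0.862), Hagh (0.862), all lower than for the other genes. For Lta they were Ercc5 (0.937), Batf3 (0.922), Myo1g (0.903), and for Ltb Sil1 (0.984), Fam76a (0.981), Gimap3 (0.978). Within the cytokine genes, the pairs with the highest values were Il17a with Il17f (0.989), Csf2 with Il5 (0.903), Il22 with Il17f (0.752) and with Il17a (0.745), and Lta with Ltb (0.736). Ifng stood apart, with -0.10 to 0.28 against the other 8.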

How the data were processed

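The 12 libraries were made from sorted cells with SMART-Seq v4 and sequenced as RNA. FPKM values were computed by the authors: per their processing notes, reads were mapped to mm10 with TopHat2 2.1.1, Bowtie2 2.2.8.0 and SAMtools 0.1.18, and genes quantified with Cufflinks 2.2.1 and Cuffdiff 2.2.1. The second deposited table holds a score per gene, counts that the authors divided by a factor for library size and rounded to whole numbers. Its low values lie on steps, and reads were worked out by dividing by the step. Between 90.1 and 96.5% of low values in each library then lay within 0.05 of a whole number.

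Differences were fitted with limma 3.58.1 (R 4.3.3, empirical Bayes with a mean trend) on log2(FPKM + 1) with 1 mean per group, for genes whose FPKM reached 1 in 3 or more libraries. This left 12502 of 23284 genes, and p-values were adjusted by Benjamini and Hochberg over them at 0.05. The 5 comparisons were PA milk against ND in each layer, the difference of these effects (LP less IEL), and IEL against LP in each diet. Exact permutation tests took all splits of 3 and 3 libraries. Tables and figures used Python 3.11.15 with numpy 2.4.6, pandas 2.3.3, matplotlib 3.10.9 and Biopython 1.88. The code of the fits was run on simulated data with normal noise and less spread than the cytokine genes had. That run checks the code and not how well the fits suit these values.

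Genes were matched by symbol. The cytokine genes and the lists were chosen with earlier results of these data known. Besides cytokine genes, the text names up to 4 genes of each list with the highest mean, list genes called, defining markers, some of the genes most like a cytokine gene and, by choice, Klrg1, Tnf, Cd3d and Cd3e. Alternatives were 2 other scalings, no filter, a higher filter, a smaller added value, fits of 2 groups and a replicate block. Sample quality weights, limma-voom on recovered reads and fits without libraries were used as well. The block was the replicate number for diet, and the mouse label (diet and number) for layer and for the interaction. The fit without the 3 libraries of fewest genes was chosen after the values were seen.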

Additional observations from a re-analysis of the deposited data

How the results depend on the processing

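The groups hold 3 libraries each, most cytokine genes were detected in a few of them, and 1 library can turn a difference. The 10 alternatives set up first were applied to all 5 comparisons, except that the fit to 2 groups does not apply to the interaction, the difference of the PA effect between LP and IEL. Under these and 1 added alternative, 465 of 481 cytokine values kept the direction and call, 13 turned direction and 3 became called. With 1 library left out, 294 of 324 kept them and 30 turned direction. The cause was not tested. Directions never turned for Il22, Il17a, Il17f, Csf2, Ifng, Il5 and Ltb between the diets in LP, nor for Il17a, Il17f and Ifng in IEL. A fall to 0 did not count as a turn. The Ifng difference in LP fell to 0 without PA LP replicate 3, the only LP library in which Ifng was detected.

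Counts of called genes over all genes tested were 0 for diet in IEL, 0 for diet in LP, 0 for the interaction, 4 for layer under ND, 18 for layer under PA milk. They became 11 for layer under PA milk with leukocyte gene scaling, 2 for diet in LP, 1 for the interaction, 0 for layer under ND and 9 for layer under PA milk with no filter, 2 for layer under ND with an FPKM of at least 5, 1 for layer under ND with 0.1 added in place of 1, 92 for layer under ND and 1 for layer under PA milk with 2 groups in the fit, 3 for diet in LP, 793 for layer under ND and 134 for layer under PA milk with sample quality weights, 6 for diet in LP and 0 for layer under ND with limma-voom, 113 for layer under ND and 314 for layer under PA milk without replicate 2 of PA IEL and PA LP, and 1 for diet in IEL, 74 for layer under ND and 355 for layer under PA milk without the 3 libraries of fewest genes. With 1 library left out they ranged 0 to 1 for diet in IEL, 0 to 8 for diet in LP, 0 to 65 for layer under ND, 1 to 289 for layer under PA milk.

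Differences of cytokine genes that turned direction were Areg 0.0834 for diet in LP with 0.1 added, Areg -0.65 for diet in IEL, Areg 0.31 for diet in LP and Areg 0.96 for the interaction with quality weights, Areg 0.52 for diet in LP with limma-voom, Areg 1.78 for diet in LP, Lta 0.48 for diet in LP and Areg 1.17 for the interaction without replicate 2 of PA IEL and PA LP, and Areg -0.22 for diet in IEL, Areg 1.78 for diet in LP, Lta 0.48 for diet in LP, Areg 2.003 for the interaction and Il22 0.13 for layer under ND without the 3 libraries of fewest genes. Quality weights called Csf2 (-4.67), Ifng (4.15) and Il5 (-3.27) for layer under ND by limma. With 1 library left out, the lowest and highest log2 differences of those that turned were diet in IEL, Il22 -1.38 to 3.33, Csf2 -0.61 to 0.87, Areg -1.03 to 1.59, Lta -0.24 to 2.55 and Ltb -1.25 to 3.66; the interaction, Il17f -4.86 to 0.43 and Areg -2.69 to 1.39; layer under PA milk, Il17a -0.0374 to 0.035, Csf2 -1.73 to 0.79, Lta -0.998 to 1.79 and Ltb -1.32 to 3.56; diet in LP, Areg -2.30 to 1.78 and Lta -2.30 to 0.66; layer under ND, Il22 -5.27 to 0.67, Il17f -5.00 to 0.28 and Areg -0.66 to 3.08. The Il17a values for layer under PA milk come from libraries at or under the floor of 3 reads, so their sign carries no direction.

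With the replicate number as a block, counts were 0 for diet in IEL and 3 for diet in LP. With the mouse label (diet and number) as a block, they were 1 for the interaction, 0 for layer under ND and 5 for layer under PA milk. That block treats libraries of the same diet and number as 1 mouse. No cytokine gene was called or turned in these fits. The values showed no clear pairing by number. Correlations within number, of values less their group means, were -0.02, 0.06, -0.03, 0.00, 0.01 and 0.00 across the layers, 0.07, 0.06 and -0.03 across the diets in IEL and -0.04, -0.12 and -0.02 in LP. They do not settle whether libraries with the same number came from 1 mouse.

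Leukocyte gene scaling moved the median of all genes from -0.30 to -0.43 for diet in IEL, -0.36 to -0.21 in LP, -0.03 to 0.26 for the interaction, -0.09 to 0.10 for layer under ND and -0.03 to -0.16 under PA milk. Of the genes called for layer under ND, 2 of 3 were then higher, against 1 of 4 before.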
